A study of Mus musculus with 16 samples.

Results

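The 10 genes described here make melanin or build, fill and move the melanosome, the organelle in which melanocytes and many melanoma cells store that pigment. They are Tyr, Tyrp1, Dct, Mlana, Slc45a2, Slc24a5, Oca2, Gpr143, Rab27a and Gpnmb, found by their gene name among the 55681 probes of a mouse expression array. All 10 passed the filter on dim probes, out of 21969 genes and transcripts that were tested. Tumour RNA from 16 mouse melanoma biopsies was labelled with Cy5 and hybridised together with a universal mouse reference RNA in Cy3, so each value is the log2 ratio of tumour over reference. Each of 4 groups held 4 tumours, namely untreated controls, tumours treated for 4 days, tumours treated for 60 days, and tumours named resistant, which were treated for 120 days. The series concerns resistance to BRAF inhibitors, but the agent, the dose, and the strain, genotype and age of the mice are not given in the sources used here. Whether the untreated mice received a vehicle is not given either, nor whether tumours came from separate animals, so the p-values measure the spread between these biopsies. Codes in the sample titles are unexplained, and every tumour was counted as independent. No code occurs in different groups. All tumours at 4 days share a single code, and the tumours of the other groups share codes in part. Every comparison of groups is thus also one of different codes, and the 2 cannot be told apart. The arrays lay on 2 slides with 2 arrays of every group on each, and the places of each group were the same on both slides, so place and group cannot be told apart.

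Melanin is made from tyrosine in a short series of oxidations inside the melanosome. Tyrosinase starts it, and the related enzymes dopachrome tautomerase and tyrosinase-related protein 1 act on later intermediates. Transporters of the melanosome membrane set its ion content and pH, on which tyrosinase activity depends. The transcription factor Mitf drives many of these genes in melanocytes, in part through the M-box, a DNA element around the letters CATGTG. In human melanoma cells, inhibition of mutant BRAF is known to raise MITF and pigment genes, and loss of the pigmented state is one of the routes described for resistance.

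Promoter sequences in RefSeq (build GRCm38.p6) covered 7 of the 10 genes in 8 windows of 250 bases before the transcription start. CATGTG, read on both strands, was found in the windows of 5 of these 7 genes, namely Tyr, Tyrp1, Dct, Slc24a5 and Oca2. It was found in 12.25% of the 32851 windows of the whole table. The other E-box searched, CACGTG, which reads the same on both strands and shares no match with CATGTG, was in 1 of the 7 genes (Rab27a) and in 6.02% of all windows. The windows of the 3 enzyme genes are shown because these enzymes carry out the synthesis itself, 5′ to 3′ on the strand of the gene, with CATGTG or its reverse complement CACATG in capitals. The Tyr window is chr7:87493513-87493762 on the minus strand, with the match starting 21 bases before the start. The Tyrp1 window is chr4:80833963-80834212 on the plus strand, with the match 46 bases before the start. The Dct window is chr14:118052247-118052496 on the minus strand, with matches 232 and 150 bases before the start.
Tyr: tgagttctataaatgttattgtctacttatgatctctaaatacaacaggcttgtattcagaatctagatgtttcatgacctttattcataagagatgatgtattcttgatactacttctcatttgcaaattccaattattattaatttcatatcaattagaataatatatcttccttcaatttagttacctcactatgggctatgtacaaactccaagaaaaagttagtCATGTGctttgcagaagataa
Tyrp1: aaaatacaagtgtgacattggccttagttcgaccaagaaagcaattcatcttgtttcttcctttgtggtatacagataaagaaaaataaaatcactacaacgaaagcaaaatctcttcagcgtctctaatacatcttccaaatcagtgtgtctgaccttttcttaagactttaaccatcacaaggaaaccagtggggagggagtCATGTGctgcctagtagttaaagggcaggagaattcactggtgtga
Dct: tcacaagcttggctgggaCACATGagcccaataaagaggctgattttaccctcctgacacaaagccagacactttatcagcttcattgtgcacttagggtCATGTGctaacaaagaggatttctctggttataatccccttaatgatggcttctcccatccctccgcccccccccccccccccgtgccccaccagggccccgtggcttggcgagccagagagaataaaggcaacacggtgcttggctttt
A match of letters is a description of these windows and not a measured binding site.

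In treated tumours all 10 genes were higher on average than in untreated tumours, at 4 days and at 60 days, but none of these differences passed the test after adjustment. Oca2, Gpr143 and Rab27a would not have passed the filter on dim probes without the 4-day and 60-day tumours. Their place in this count thus rests on the groups in which they were high. The median log2 difference of the 10 genes was 1.03 at 4 days and 1.06 at 60 days, while the median over all 21969 genes was -0.01 and 0.00. In resistant tumours the median difference from untreated was -0.01, with 4 genes higher and 6 lower. Against the 4-day and the 60-day tumours, all 10 genes were lower on average in the resistant tumours, with medians of -1.04 and -1.07, and again none passed. Gpnmb came nearest to the threshold of 0.05, with a limma adjusted p of 0.051 at 4 days. In bulk tissue, a change in the share of pigmented cells and a change in RNA per cell cannot be told apart.

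**Figure D1:**
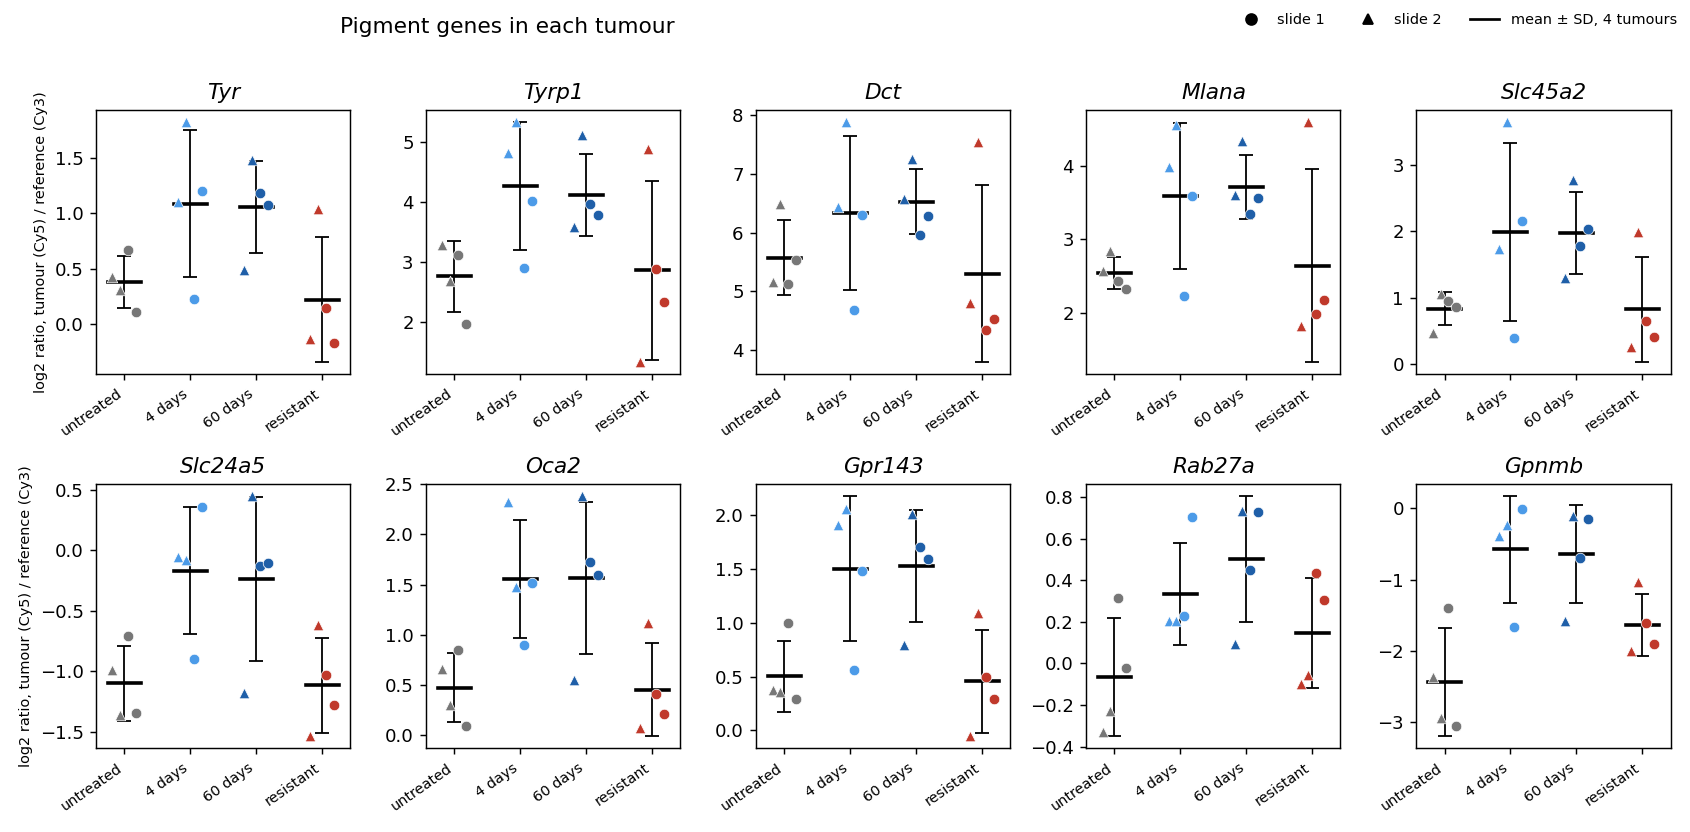
Log2 ratio of tumour (Cy5) over reference (Cy3) for the 10 genes, with 1 point per tumour in the order untreated, 4 days, 60 days and resistant. Circles are slide 1, triangles slide 2, and black bars are the mean ± SD of 4 tumours. In every panel the 4-day and 60-day means lie above the untreated mean, and in most panels 1 resistant tumour lies well above the other 3.

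With the 4 groups in 1 limma model and p-values adjusted by the Benjamini-Hochberg method over all genes, 0 of the 10 genes passed at 4 days over untreated, where 1.34% of all genes did. At 60 days over untreated 0 of the 10 passed, against 0.815% of all genes. In resistant over untreated tumours it was 0 of the 10, against 0.0182% of all genes. In resistant over 4-day tumours 0 of the 10 passed, against 0.00455% of all genes, and in resistant over 60-day tumours 0 of the 10, against 0% of all genes. Between 60-day and 4-day tumours 0 of the 10 passed, against 0% of all genes. In the test of any difference among the 4 groups it was 0 of the 10, against 0.269% of all genes. At an unadjusted p under 0.05, 6 of the 10 genes passed at 4 days over untreated, 5 at 60 days over untreated and 0 in resistant over untreated tumours. The same count was 5 in resistant over 4-day, 5 in resistant over 60-day and 0 in 60-day over 4-day tumours. Over all 21969 genes it was 3673, 4110, 2093, 1800, 1246 and 412 in the same order of comparisons. Oca2 and Gpr143 were counted in every comparison that had any such gene of the 10, and Rab27a at 60 days over untreated. They passed the filter on dim probes through the treated groups, so these counts rest in part on the groups in which they were high.

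Groups of tumours overlapped for most of the genes. At 4 days the lowest treated tumour lay above the highest untreated tumour for 1 of the 10 genes (Oca2), and for 2.76% of all genes. At 60 days this held for 3 of the 10 genes (Tyrp1, Mlana and Slc45a2), and for 7.36% of all genes. No gene of the 10 was lower in every resistant tumour than in every 4-day tumour, where 1.32% of all genes were. The same count against the 60-day tumours was 0 of the 10, with 2.51% of all genes.

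**Figure D2:**
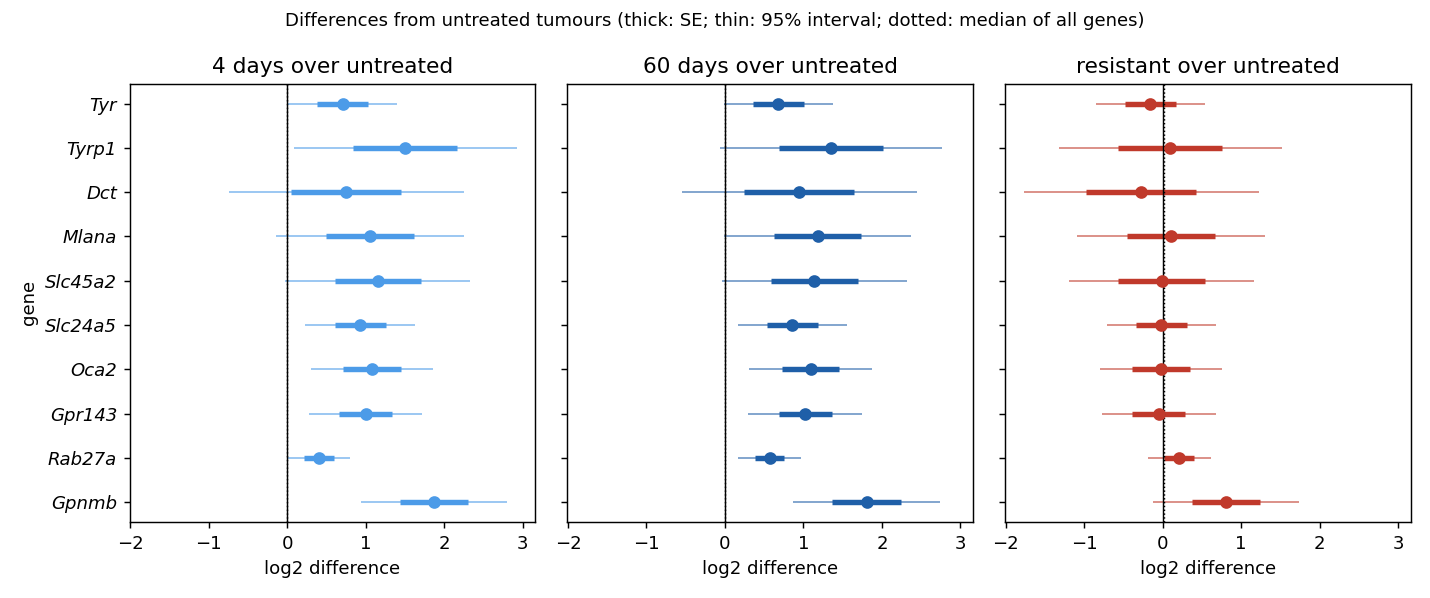
Log2 difference of each of the 10 genes from untreated tumours at 4 days, at 60 days and in resistant tumours, with the SE from limma as a thick bar and the 95% interval as a thin bar. All 10 points lie right of 0 in the first 2 panels, between 0.40 and 1.87, whereas the points of the resistant tumours lie between -0.27 and 0.81.

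Tyr, whose product tyrosinase is the rate-limiting enzyme of melanin synthesis, was measured by a probe at chr7:94632414-94632473 (minus strand, coordinates of the array design on build mm9). Its log2 ratios were 0.42, 0.31, 0.67 and 0.11 in untreated tumours, 1.10, 1.82, 0.22 and 1.20 at 4 days, 0.49, 1.48, 1.18 and 1.07 at 60 days, and -0.13, 1.04, 0.14 and -0.17 in resistant tumours. In both treated groups 3 of 4 tumours were above every untreated tumour and 1 lay among them, while 1 resistant tumour was above and 2 were below every untreated one. The mean at 4 days was 1.09 ± 0.66, against 0.38 ± 0.23 in untreated tumours (SD, n = 4 each). The difference was 0.71 ± 0.32 at 4 days (SE, limma adjusted p = 0.29) and 0.68 ± 0.32 at 60 days (adjusted p = 0.28). Without 4-day replicate 2 the 4-day value of Tyr was 0.46. A second Tyr probe, 56149 bases away and spotted 10 times, was above background on 0 of 16 arrays and was not used.

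Tyrp1, an enzyme of the later steps that also stabilises tyrosinase, was measured at chr4:80497524-80497583. The log2 ratios of Tyrp1 were 3.29, 2.67, 3.11 and 1.95 in untreated tumours, 4.81, 5.33, 2.89 and 4.01 at 4 days, 3.58, 5.11, 3.96 and 3.79 at 60 days, and 1.32, 4.88, 2.88 and 2.33 in resistant tumours. All 60-day tumours and 3 of 4 tumours at 4 days were above every untreated tumour, and the resistant tumours ran from below the lowest untreated tumour to among the higher treated ones. The differences from untreated tumours were 1.51 ± 0.66 at 4 days (adjusted p = 0.273), 1.35 ± 0.66 at 60 days (adjusted p = 0.29) and 0.10 ± 0.66 in resistant tumours (adjusted p = 0.982), all SE from limma.

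Dct encodes dopachrome tautomerase, which shapes the eumelanin intermediate between the other 2 enzymes. At chr14:118412029-118412088 its log2 ratios were 5.15, 6.50, 5.12 and 5.54 in untreated tumours, 6.45, 7.89, 4.68 and 6.31 at 4 days, 6.58, 7.26, 5.97 and 6.29 at 60 days, and 4.81, 7.54, 4.34 and 4.52 in resistant tumours. Only 1 tumour at 4 days and 2 at 60 days were above every untreated tumour, and 1 tumour at 4 days was below all of them. In the resistant group 3 tumours were below every untreated tumour and 1 was above every untreated tumour. The differences were 0.75 ± 0.70 at 4 days and 0.95 ± 0.70 at 60 days (SE, limma adjusted p = 0.678 and 0.508). The 4-day value for Dct was 0.23 without 4-day replicate 2 and 1.30 without 4-day replicate 3. A second Dct probe shares 44 bases with the first and followed it with r = 0.993 over the arrays; it gave 0.97 ± 0.78 at 4 days and 1.24 ± 0.84 at 60 days, the second without replicate 1 at 60 days, whose spot the scanner software had set aside as an outlier.

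Mlana, a small melanosome protein also known as MART-1 that acts with Pmel in forming the organelle, was measured at chr19:29782737-29782796. The log2 ratios of Mlana were 2.57, 2.84, 2.43 and 2.32 in untreated tumours, 3.99, 4.57, 2.22 and 3.59 at 4 days, 3.61, 4.35, 3.35 and 3.57 at 60 days, and 1.81, 4.61, 1.98 and 2.17 in resistant tumours. The untreated tumours lay close together, all 60-day tumours were above them, and at 4 days 3 were above and 1 was below. Of the resistant tumours 3 were below every untreated tumour, and replicate 2 was the highest of all 16 tumours. The differences were 1.06 ± 0.56 at 4 days (adjusted p = 0.367) and 1.18 ± 0.56 at 60 days (adjusted p = 0.273, both SE from limma).

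Among the transporters, Slc45a2, which helps keep the melanosome from turning acidic, was measured at chr15:10958929-10958988. Slc45a2 had log2 ratios of 0.47, 1.05, 0.95 and 0.85 in untreated tumours, 1.74, 3.66, 0.39 and 2.15 at 4 days, 1.29, 2.78, 1.78 and 2.03 at 60 days, and 0.24, 1.99, 0.64 and 0.41 in resistant tumours. Every 60-day tumour was above the untreated ones, and 1 tumour at 4 days was below them. The tumour signal was above background in all 8 treated tumours of these 2 groups, in 2 of 4 resistant and in 3 of 4 untreated tumours. The differences were 1.15 ± 0.55 at 4 days and 1.14 ± 0.55 at 60 days (SE, limma adjusted p = 0.309 and 0.284). Without 4-day replicate 2 the 4-day value of Slc45a2 was 0.60.

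Oca2, an anion channel of the melanosome known from the pink-eyed dilution mouse, was measured at chr7:63791667-63791726. Its log2 ratios were 0.66, 0.30, 0.84 and 0.09 in untreated tumours, 2.33, 1.48, 0.90 and 1.51 at 4 days, 0.55, 2.38, 1.72 and 1.60 at 60 days, and 0.07, 1.12, 0.41 and 0.21 in resistant tumours. All 4 tumours at 4 days were above every untreated tumour, the lowest by a narrow margin, and 1 tumour at 60 days lay among the untreated ones. The signal was above background in 1 of 4 resistant and 2 of 4 untreated tumours. The differences were 1.08 ± 0.37 at 4 days and 1.09 ± 0.37 at 60 days (SE, limma adjusted p = 0.163 and 0.142).

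Slc24a5, a sodium, potassium and calcium exchanger whose human form affects skin colour, was measured at chr2:124913773-124913832. Slc24a5 had log2 ratios of -0.99, -1.36, -0.71 and -1.34 in untreated tumours, -0.06, -0.08, -0.90 and 0.36 at 4 days, -1.18, 0.45, -0.13 and -0.10 at 60 days, and -1.54, -0.62, -1.03 and -1.28 in resistant tumours. In each treated group 3 of 4 tumours were above the untreated ones and 1 lay among them. The differences were 0.93 ± 0.33 at 4 days and 0.86 ± 0.33 at 60 days (SE, limma adjusted p = 0.176 and 0.184).

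Gpr143, a G protein-coupled receptor of the melanosome membrane that is mutated in human ocular albinism, was measured at chrX:149243130-149243189. The log2 ratios of Gpr143 were 0.37, 0.36, 0.99 and 0.29 in untreated tumours, 1.91, 2.06, 0.56 and 1.48 at 4 days, 0.79, 2.01, 1.71 and 1.59 at 60 days, and -0.05, 1.09, 0.49 and 0.29 in resistant tumours. Untreated replicate 3 stood above the other 3 untreated tumours, and 1 tumour of each treated group lay below it. The signal was above background in 1 of 4 resistant and 1 of 4 untreated tumours. The differences were 1.00 ± 0.34 at 4 days and 1.02 ± 0.34 at 60 days (SE, limma adjusted p = 0.163 and 0.139).

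Rab27a, a small GTPase that tethers melanosomes to the actin motor through melanophilin and also acts in secretion from immune cells, was measured at chr9:72944668-72944727. In the main processing it had the smallest differences of the 10 genes from untreated tumours at 4 and at 60 days. That rank depends on the background step. With the scanner's processed signals, to which no offset was added, its differences were 1.41 at 4 days and 1.62 at 60 days. The 4-day difference of Dct was then 0.16. For Rab27a the log2 ratios were -0.33, -0.23, 0.31 and -0.02 in untreated tumours, 0.20, 0.21, 0.23 and 0.70 at 4 days, 0.10, 0.73, 0.45 and 0.73 at 60 days, and -0.10, -0.06, 0.43 and 0.30 in resistant tumours. At 4 days 1 tumour was above every untreated tumour, at 60 days 3 were. The differences were 0.40 ± 0.19 at 4 days, 0.57 ± 0.19 at 60 days and 0.21 ± 0.19 in resistant tumours (SE, limma adjusted p = 0.303, 0.141 and 0.788). Its signal was above background in 2 of 4 resistant and 1 of 4 untreated tumours.

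Gpnmb, a glycoprotein of the melanosome that is also made by macrophages and osteoclasts, was measured at chr6:49006386-49006445. On the ratio of the main processing it had the largest differences of the 10 genes from untreated tumours. With the scanner's processed signals Oca2 and Gpr143 had larger differences than Gpnmb. These were 2.24 and 2.28 at 4 days, and 2.63 and 2.12 at 60 days. Gpnmb had log2 ratios of -2.38, -2.95, -1.40 and -3.06 in untreated tumours, -0.39, -0.24, -1.67 and -0.01 at 4 days, -1.59, -0.11, -0.70 and -0.16 at 60 days, and -2.01, -1.04, -1.61 and -1.90 in resistant tumours. Untreated replicate 3 was the highest of its group, and 3 of 4 tumours in each treated group were above it. The difference was 1.87 ± 0.44 at 4 days, or 3.66-fold (SE, limma adjusted p = 0.051), and 1.81 ± 0.44 at 60 days, or 3.50-fold (adjusted p = 0.0641). Resistant tumours differed from untreated tumours by 0.81 ± 0.44 (adjusted p = 0.596), the largest of the 10 genes in that comparison. Left out 1 at a time, untreated replicate 3, 4-day replicate 3 or resistant replicate 1 took Gpnmb past the threshold at both times. Over the 31 other settings tried, it passed in 8 at 4 days and in 6 at 60 days, its 4-day difference ran from 1.39 to 2.35, and its adjusted p there from 0.00248 to 0.752.

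The resistant tumours did not differ detectably from untreated tumours at this number of arrays. The 95% intervals of the difference ran from -0.85 to 0.54 for Tyr and from -1.32 to 1.52 for Tyrp1. They ran from -1.77 to 1.22 for Dct and from -1.09 to 1.30 for Mlana. For 5 of the 10 genes (Tyrp1, Dct, Mlana, Slc45a2 and Rab27a) the interval includes a difference as large as the one at 4 days. For the other 5 (Tyr, Slc24a5, Oca2, Gpr143 and Gpnmb) it ends below it. The 4-day difference was taken here without its own error, and both differences share the untreated tumours. For Tyrp1 the margin was small, with an upper end of 1.515 against 1.506. The split is thus a description and no test between genes. Against 4-day tumours, Gpr143 was lower by 1.05 ± 0.34, Oca2 by 1.10 ± 0.37 and Slc24a5 by 0.94 ± 0.33 on the log2 scale (SE, limma adjusted p = 0.519, 0.531 and 0.538). Since Gpr143 and Oca2 were each above background in 1 of 4 resistant tumours and in all 4 tumours at 4 and at 60 days, they passed the filter on dim probes mainly through the treated groups, and the size of these differences depends on the background step. With the processed signals they were -2.26 for Gpr143 and -2.34 for Oca2 in resistant over 4-day tumours. Against 60-day tumours Gpr143 was lower by 1.07 ± 0.34 and Oca2 by 1.11 ± 0.37 (adjusted p = 0.867 for both). Between 60-day and 4-day tumours the differences of the 10 genes ran from -0.15 to 0.20, with 5 genes higher and 5 lower (limma adjusted p = 1.00 for each). That split was not stable, with all 10 higher on slide 1 (median 0.44), 1 of 10 on slide 2 (median -0.46), and 1 to 10 higher when 1 tumour was left out.

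**Figure D3:**
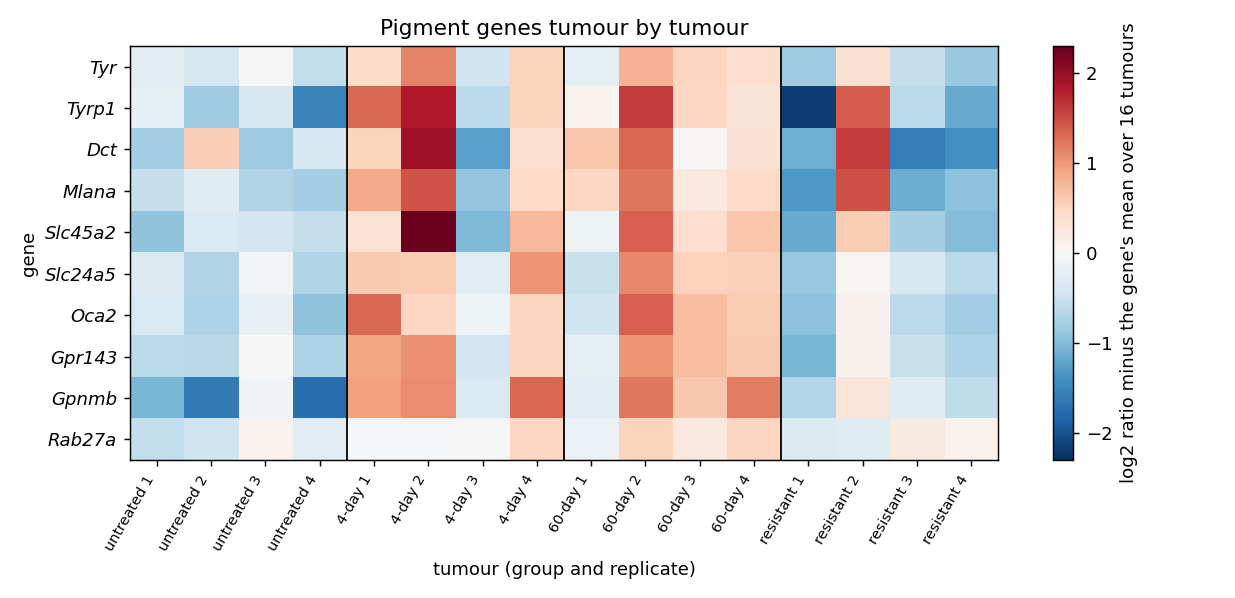
Log2 ratio of each of the 10 genes in each of the 16 tumours, minus the mean of that gene over all tumours, with red above and blue below the mean. Whole columns tend to share a colour, with 4-day replicate 3 and 60-day replicate 1 pale or blue within treated groups, and resistant replicate 2 red for Tyrp1, Dct and Mlana in a group that is otherwise mostly blue.

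Much of the variation lay between tumours of the same group, and it was shared across the genes. Replicate 3 at 4 days was the lowest of its group for 9 of the 10 genes. At 60 days replicate 1 was the lowest for 8 and replicate 2 the highest for all 10 genes. Among resistant tumours replicate 1 was the lowest for 8 and replicate 2 the highest for 9. Ranked by the mean of the 8 genes of melanin synthesis (all but Rab27a and Gpnmb), resistant replicate 2 stood at rank 4 of 16 and resistant replicate 1 at rank 16. Replicate 3 at 4 days stood at rank 12, below 3 of the untreated tumours.

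The SD within groups was 1.08 for Dct, 1.02 for Tyrp1, 0.86 for Mlana and 0.85 for Slc45a2 on the log2 scale, at the 98.2, 97.8, 95.9 and 95.7 percentile of all genes, whose median was 0.27. That of Rab27a was 0.27, at the 52.0 percentile. Over the 16 tumours the 28 pairs among the 8 melanin genes had Pearson correlations from 0.58 to 0.95 with a median of 0.88. After the group means were removed they ran from 0.41 to 0.95 with a median of 0.80, so the genes moved together within groups too. Gpnmb correlated with the 8 with a median of 0.81, and 0.73 within groups. For Rab27a the median was 0.46, and 0.17 within groups. These correlations are descriptions over 16 arrays that share slides, labelling and group, and were not tested.

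Slides held every group, so each comparison could be repeated on either one with 2 tumours a group. At 4 days over untreated the median difference of the 10 genes was 0.46 on slide 1 and 1.50 on slide 2, and all 10 genes were higher on both. At 60 days over untreated it was 1.01 on slide 1 and 1.07 on slide 2, again with all 10 higher on both. In resistant over untreated tumours 3 of 10 genes were higher on slide 1 and 10 of 10 on slide 2. Slide 2 held resistant replicates 1 and 2, which were the lowest and the highest of their group. In the 60-day and resistant groups the tumours on the 2 slides also had different title codes, so slide and code cannot be told apart there.

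For Tyrp1, Dct and Mlana the Cy3 signal of the reference was not constant, although the same reference RNA is named for every array. It moved with the Cy5 signal of the tumour. On slide 2, the background-subtracted Cy5 signal of Dct ranged from 1212 to 61311 and its Cy3 signal from 52.1 to 627. For Mlana on the same slide, Cy5 ranged from 193 to 10485 and Cy3 from 81.8 to 1005. Gpnmb, with a bright reference signal, had Cy5 from 352 to 3249 and Cy3 from 7613 to 9422 on slide 2, and Cy5 from 256 to 2844 and Cy3 from 3467 to 4609 on slide 1. On the log2 scale the correlation of Cy3 with Cy5 on 8 arrays was 0.98 for Dct on slide 2 (rho = 0.98, two-sided exact permutation test, adjusted p = 0.000992 for r and 0.00397 for rho over 20 relations, those of the 10 genes on both slides). It ran from 0.94 to 0.99 over the 6 relations of Tyrp1, Dct and Mlana, and from 0.91 to 0.99 without the 2 arrays farthest from the median. These 3 genes are described because their correlations were the highest of the 10. Over all genes a median was taken by another measure, from signals normalised between arrays and centred within slides over 16 arrays. That median was 0.38, where Tyrp1, Dct and Mlana had 0.94, 0.96 and 0.98. Of the other 14 relations, which ran from -0.11 to 0.91, that of Gpr143 on slide 1 passed. The fitted increase of Cy3 per 100 units of Cy5 was 4.32 and 4.24 for Tyrp1, 1.44 and 0.96 for Dct, and 9.33 and 9.08 for Mlana on slides 1 and 2. For Gpnmb it was 27.5 on slide 1 and -3.54 on slide 2, with r on the log2 scale of 0.67 and -0.11 (exact permutation, adjusted p = 0.121 and 0.862). The spread of the Cy3 signal within slides was at the 98.1, 99.0 and 99.3 percentile of all genes for Tyrp1, Dct and Mlana. The cause was not tested.

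Differences taken from the tumour channel alone were larger for these 3 genes than those of the ratio. From Cy5 alone, quantile normalised between arrays, the difference at 4 days over untreated was 2.15 ± 0.83 for Mlana, 2.01 ± 0.71 for Tyrp1 and 1.58 ± 0.84 for Dct (SE, limma adjusted p = 0.183, 0.149 and 0.322). At 60 days over untreated it was 2.10 ± 0.83, 1.84 ± 0.71 and 1.74 ± 0.84 for the same genes (adjusted p = 0.185, 0.178 and 0.266). In resistant over untreated tumours it was 0.12, 0.15 and -0.30. Gpnmb differed by 1.76 ± 0.42 at 4 days from Cy5 alone, less than Mlana and Tyrp1, and then passed (adjusted p = 0.0444), with 0.0517 at 60 days. With the scanner's processed signals, to which no offset was added, the 4-day difference of Dct was 0.16 and that of Tyrp1 0.27. For Slc45a2, Oca2 and Gpr143 the reference signal was above background on 0 of 16 arrays, so their ratios rest on the tumour channel over a dim reference. The reference was also dim on part of the arrays for other genes. It was above background on 9 of 16 for Tyrp1, 12 for Dct, 13 for Rab27a and 15 for Tyr.

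**Figure D4:**
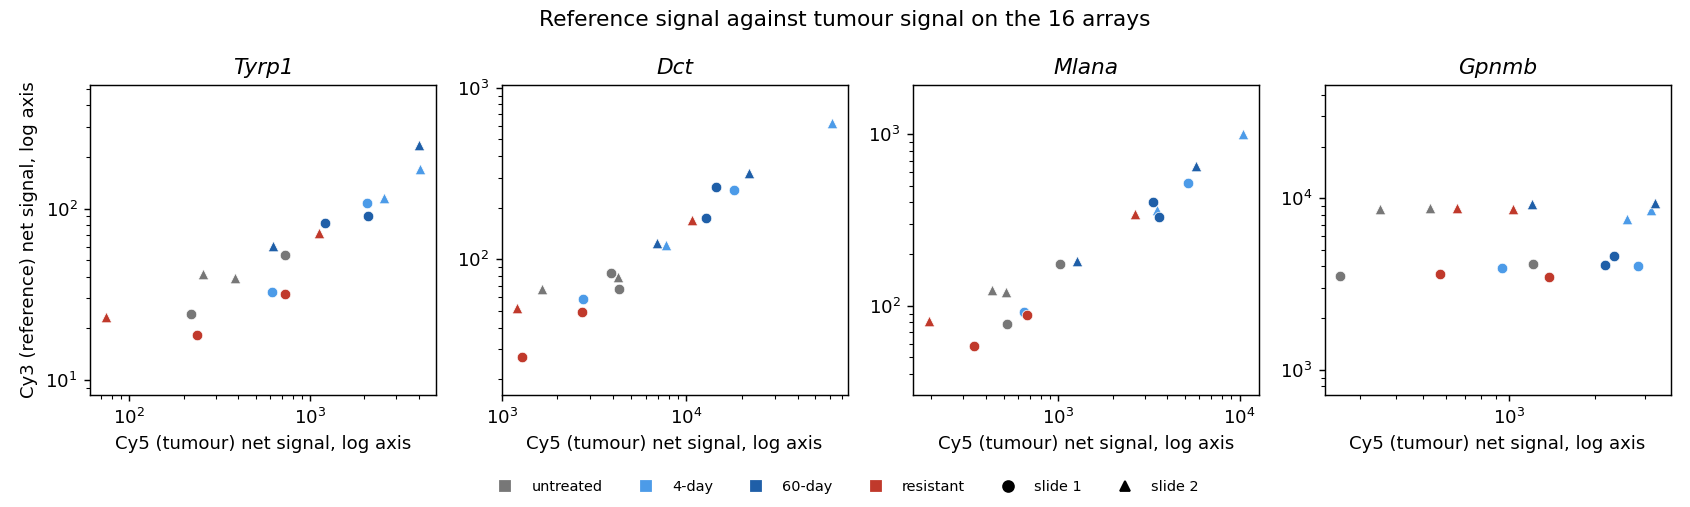
Background-subtracted Cy3 signal of the reference against the Cy5 signal of the tumour on each of the 16 arrays for Tyrp1, Dct, Mlana and Gpnmb, on log axes, with colour for the group and shape for the slide. The first 3 panels rise with the tumour signal, whereas the Cy3 signal of Gpnmb lies between 3467 and 4609 on slide 1 and between 7613 and 9422 on slide 2.

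Mitf, the transcription factor at the head of the pigment program, rose at 4 days over untreated. The log2 ratios of Mitf were 1.41, 0.98, 1.27 and 1.51 at 4 days, against 0.70, 0.17, 0.56 and 0.23 in untreated tumours, and the groups did not overlap. The difference was 0.88 ± 0.20 at 4 days (SE, limma adjusted p = 0.0459) and 0.49 ± 0.20 at 60 days (adjusted p = 0.201), and 0.09 ± 0.20 in resistant tumours (adjusted p = 0.938). The 4-day call was close to the threshold: it held in 11 of the 31 other settings and in 6 of the 16 that left out 1 tumour each, with differences from 0.76 to 1.01 over the 31. Replicate 3 at 4 days, the lowest of its group for 9 pigment genes, had a Mitf ratio of 1.27, near the others of its group. Pmel, which forms the fibrils on which melanin is laid down, had log2 ratios of 3.40, 3.51, 1.84 and 2.85 at 4 days, against 1.88, 0.93, 1.87 and 0.97 in untreated tumours. Its difference was 1.49 ± 0.46 at 4 days (adjusted p = 0.131) and 1.38 ± 0.46 at 60 days (adjusted p = 0.141), with 1 tumour at 4 days among the untreated ones.

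The median of the wider list of melanosome genes lay near that of all genes, but its genes differed widely. Of 33 listed genes of melanosome biogenesis and transport, such as the Hermansky-Pudlak syndrome and BLOC-1 genes that sort cargo to the organelle, 32 were measured, with 21 higher and 11 lower at 4 days, 0 past the threshold and a median difference of 0.02. At 60 days the median was 0.06, with 23 higher and 9 lower. Single genes of this list ran from -0.36 to 1.49 at 4 days and from -0.53 to 1.51 at 60 days. Pmel belongs to this list and had its largest difference at 4 days. Of 14 listed lineage regulators 12 were measured, with 10 higher and 2 lower at 4 days, 1 past the threshold (Mitf) and a median of 0.23. At 60 days 8 were higher and 4 lower, 0 passed, and the median was 0.39. Mc1r, the receptor for melanocyte-stimulating hormone, had a difference of 1.05 ± 0.39 at 4 days (SE, limma adjusted p = 0.2). Sox10 had -0.16 ± 0.26, Pax3 0.19 ± 0.30 and Ednrb 0.12 ± 0.34 (adjusted p = 0.854, 0.852 and 0.929). At 60 days these regulators had -0.13, 0.28 and -0.41. A list of 8 melanocyte lineage genes outside the 10, partly the same genes, had 6 higher and 2 lower at both times. Its medians were 0.16 at 4 days and 0.21 at 60 days.

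Outside the 10 genes, the pattern most like the mean of the 8 melanin genes over the 16 tumours was that of Ptgds, a prostaglandin D synthase, with r = 0.93. Next came Nipal3 with 0.93, the tetraspanin Tspan10 with 0.92, Pmel with 0.91, Mc1r with 0.90, Prr29 with 0.88, the vesicle protein Syngr1 with 0.86 and the thioesterase Acot13 with 0.86. Pmel and Mc1r thus appeared in this ranking over all genes without being members. For Gpnmb the nearest genes were the receptor phosphatase Ptpru (0.94), Syngr1 (0.93) and Sigirr (0.91), and for Rab27a they were Zfp954 (0.92), Dtx2 (0.91) and Myzap (0.91). These are the highest of many correlations and carry no test.

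Markers of other skin cells were also higher on average in the treated groups. Of 20 listed genes of the hair shaft and inner root sheath 19 were measured, and all 19 were higher at 4 and at 60 days over untreated, with median differences of 1.59 and 1.75 and 0 past the threshold. Their mean log2 ratio per tumour ranged from 3.58 to 4.97 at 4 days, against 1.26 to 4.01 in untreated tumours, and from 1.08 to 4.07 in resistant tumours. All 9 sebaceous gland genes were higher at 4 and 60 days, with medians of 1.37 and 1.67, and Scd1, a fatty acid desaturase, rose at both times (1.37 ± 0.30, adjusted p = 0.0426, and 1.67 ± 0.30, adjusted p = 0.0252, SE from limma), calls that held in 11 and 20 of the 31 other settings. Dgat2l6, an acyltransferase-like gene of this list, also rose at 60 days (2.41 ± 0.44, adjusted p = 0.0333), and is named after its values were seen. The mean of the sebaceous genes per tumour ranged from 2.50 to 3.53 at 4 days, against 1.44 to 2.55 in untreated tumours. In resistant tumours it ranged from 0.13 in replicate 1 to 3.76 in replicate 2. Every resistant tumour except replicate 1 was above all untreated tumours on this mean. Of 15 keratinocyte genes 14 were higher at 4 and at 60 days, with medians of 0.56 and 0.86. In resistant over untreated tumours the median was 0.23 for hair, 0.88 for sebaceous and 0.01 for keratinocyte genes. All 9 sebaceous genes were higher in that comparison, with 0 past the threshold, whereas the median of the 8 melanin genes was -0.02. The brightest hair genes, Krt71 and Krt85, differed by 1.18 ± 0.49 and 0.715 ± 0.33 at 4 days (SE, limma adjusted p = 0.245 and 0.295). Krt5 and Krt10, the brightest keratinocyte genes, differed by 0.15 ± 0.30 and 0.74 ± 0.83 (adjusted p = 0.89 and 0.757). The melanocytes of hair follicles express the pigment genes as well, and the part of skin appendages in the pigment differences was not tested.

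Over the 16 tumours the mean of the 8 melanin genes correlated with that of the hair genes with r = 0.54 and rho = 0.56 (permutation test, two-sided, adjusted p = 0.0587 and 0.105 over 12 relations), and with r = 0.31 without the 2 tumours farthest from the median. After group means were removed r was 0.18 with hair genes, 0.55 with sebaceous genes and 0.60 with keratinocyte genes. Within slides, with 8 tumours each, it was 0.56 on the first and 0.67 on the second (exact permutation test, adjusted p = 0.0745 and 0.122), and 0.74 and 0.05 without the 2 farthest tumours. With sebaceous genes r was 0.69 and rho 0.71 (adjusted p = 0.00648 and 0.0324), r was 0.62 without the 2 farthest tumours, 0.46 within slide 1 and 0.87 within slide 2 (exact permutation, adjusted p = 0.272 and 0.0295), and 0.20 and 0.65 there without the 2 farthest. With keratinocyte genes r was 0.67 and rho 0.64 (adjusted p = 0.00648 and 0.0486), and r was 0.60 without the 2 farthest tumours. Within slides 1 and 2 it was 0.26 and 0.81 (exact permutation, adjusted p = 0.519 and 0.0295), and 0.84 and 0.62 without the 2 farthest, so the values within slides depended on 1 or 2 tumours. All these permutations ignored the groups, and those over 16 tumours also ignored the slides. The list means differed between groups, so the p-values also take in those differences. The correlations after removal of group means were not tested. The melanin mean had higher correlations with the pigment cell lists than with these skin lists. Over the 16 tumours r was 0.88 with other melanocyte lineage genes, 0.87 with lineage regulators and 0.86 with melanosome biogenesis and transport genes. After group means were removed it was 0.81, 0.77 and 0.86. The pigment cell lists share some genes, and their correlations were not tested. Resistant replicate 2, at rank 4 for the melanin genes, had the highest mean of all 16 tumours for sebaceous genes (3.76) and for keratinocyte genes (4.61), and a hair mean of 3.00.

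**Figure D5:**
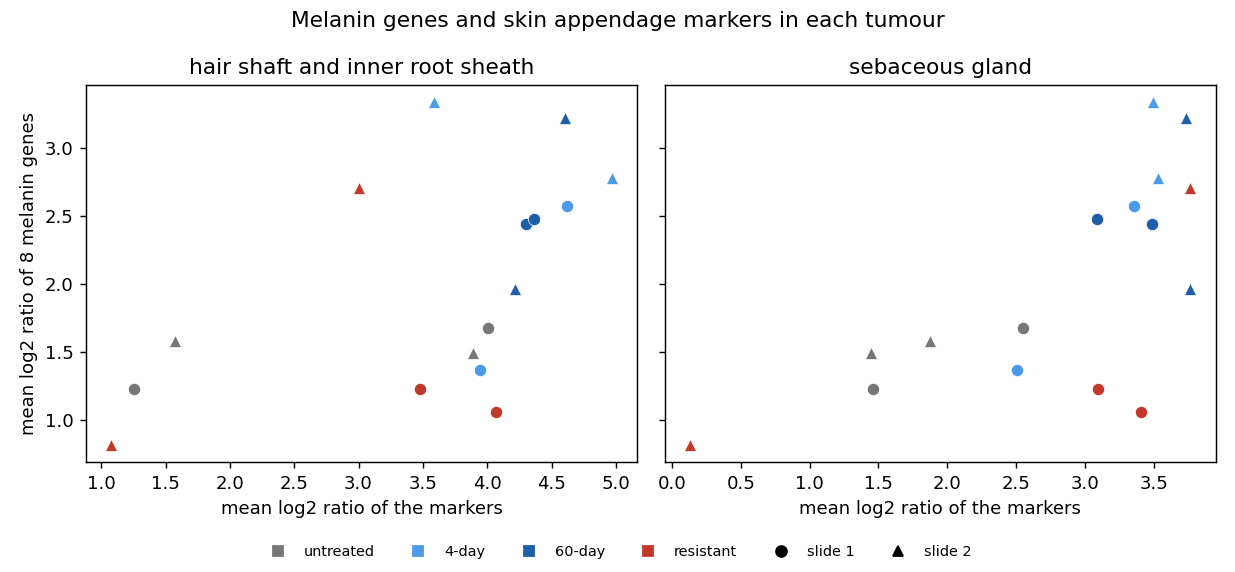
Mean log2 ratio of the 8 melanin genes in each tumour against the mean of the hair shaft and inner root sheath markers and against the mean of the sebaceous gland markers, with colour for the group and shape for the slide. Resistant replicate 1 is lowest on all 3 measures, at 0.82 for the melanin genes, 1.08 for hair and 0.13 for sebaceous markers.

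Since Gpnmb is also a gene of macrophages, their markers were set beside it. Of 12 measured macrophage genes 2 were higher and 10 lower at 4 days over untreated, with a median difference of -0.35 and 0 past the threshold. At 60 days 3 were higher and 9 lower, with a median of -0.34. Their mean per tumour ranged from 1.51 to 2.52 at 4 days, against 2.02 to 2.82 in untreated tumours. Of 12 genes of lipid-laden macrophages and osteoclasts 9 were higher at 4 days, with a median of 0.26, and 10 at 60 days, with a median of 0.22. In resistant over untreated tumours 9 of these genes were higher and 3 lower, with a median of 0.39. Of the macrophage genes 5 were higher and 7 lower there, with a median of -0.13. Lgals3, a galectin of the lipid-laden list that other cells make too, rose at 60 days (1.46 ± 0.27, SE, limma adjusted p = 0.0327), a call that held in 19 of the 31 other settings. Its differences at 4 days (1.12) and in resistant over untreated tumours (1.34) did not pass the threshold. The part of either list in the Gpnmb difference was not tested.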

How the data were processed

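Tumour RNA (Cy5) and a universal mouse reference RNA (Cy3) were read from 16 arrays of 59305 spots. The deposited array files hold intensity values (mean spot and median local background brightness) read by the scanner software Feature Extraction (Agilent, version 10.7.3.1), as their file headers state, with flags of another kind (other) for spots above background, outliers and saturation. Per the file headers, the software also gave log10 ratios from background-subtracted, dye-normalised signals. In the deposited value table, log2 ratios run in the same direction, and 21.6% to 40.2% of values per array are missing for unstated reasons.

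The mean intensities were background-corrected by normexp with an offset of 50, normalised by loess within each array and expressed as log2 of Cy5 over Cy3 in limma 3.58.1 (R 4.3.3). Outlier-flagged spots (0.55% of values) were treated as missing. Probes needed a Cy5 signal above background on 4 or more of the 16 arrays. Such a signal was seen for 27297 to 30192 probes per array, and 30486 probes passed. RefSeq accessions matched for 20069 probes and changed 1135 symbols. A gene was read from its probe of highest mean intensity, for 21969 genes and transcripts in all. Groups were compared in 1 limma model of 4 means, with Benjamini-Hochberg adjustment over all genes in each comparison and a threshold of 0.05. Correlations across tumours or arrays used exact permutation over 8 arrays and 100000 resamples over 16. The number of arrays limits the precision. The steps were tested on simulated data.

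The 10 genes and the gene lists were chosen with earlier results of these data known. Besides the 10 genes, the text names by rule Mitf and Pmel, and genes of the melanosome and regulator lists past the threshold. Also by rule are the 8, 3 and 3 genes of most similar pattern to the melanin mean, Gpnmb and Rab27a. The rule covered the brightest genes of every marker list, but those are given in full only for the hair and keratinocyte lists. Scd1, Dgat2l6, Lgals3 and Gzma are the genes of the other marker lists, besides Mitf, that passed the threshold. Dgat2l6, Gzma, Sox10, Pax3 and Ednrb were named after their values were seen. Alternatives changed the background step, the normalisation, the filter, the probe rule, the use of the reference, slide, title code, array weights and the tumours included.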

Additional observations from a re-analysis of the deposited data

Results flagged for a closer look

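Of 40 gene and group combinations of 4 tumours, 4 held a tumour whose gap to its nearest neighbour took up more of the range of the group than Dixon's 95% critical value, where chance gives about 5%. Resistant replicate 2 had a Dct log2 ratio of 7.54 and a Mlana log2 ratio of 4.61, each with the other 3 resistant tumours far below. Untreated replicate 3 had a Gpr143 log2 ratio of 0.99, above the other 3 untreated tumours. Replicate 4 at 4 days had a Rab27a log2 ratio of 0.70, with the other 3 between 0.20 and 0.23.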

How the results depend on the processing

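Over 15 other settings and 16 fits without 1 tumour each, no pigment gene passed in resistant over untreated, resistant over 4-day, resistant over 60-day or 60-day over 4-day tumours. At 4 days over untreated the count past the threshold was 1 (Gpnmb) with Cy5 alone (2.35% of all genes), quantile normalisation between arrays (1.07%), the mean over probes (1.42%) and slide as a block (2.88%), and 5 with array weights (Tyrp1, Slc24a5, Oca2, Gpr143 and Gpnmb), where 18.3% of all genes passed. At 60 days it was 1 with quantile normalisation (0.842%), 2 with only the groups compared (Mlana and Gpnmb, 5.72%) and 6 with array weights (22.3% of all genes), and in the test over the 4 groups 6 with array weights (16.3%). Leaving out 1 tumour gave 0 to 2 genes at 4 days, 0 to 1 at 60 days, 0 to 0 in the other 4 pairs and 0 to 1 over the 4 groups. The genes were Gpnmb without 4-day replicate 3, resistant replicate 1 or untreated replicate 3, and also Gpr143 without 4-day replicate 3, where 1.50% to 5.18% of all genes passed at 4 or 60 days. Without 1 tumour the median difference of the 10 genes ran from 0.77 to 1.31 at 4 days and from 0.84 to 1.24 at 60 days over untreated, from -0.33 to 0.15 in resistant over untreated, from -1.39 to -0.74 in resistant over 4-day, from -1.31 to -0.84 in resistant over 60-day and from -0.33 to 0.23 in 60-day over 4-day tumours. All 10 genes stayed higher at 4 and 60 days over untreated in each of these 16 fits. The median at 4 days was 0.46 on slide 1 alone, and in resistant over 60-day tumours -0.28 in the deposited value table, which gave a difference for 9 genes. Among differences at least as large as their SE, 11 signs turned, none of a difference that had passed. With the processed signals, Dct became 0.0513 in resistant over 4-day and 0.0568 in resistant over 60-day, and Tyrp1 0.22 in resistant over 60-day tumours. In the deposited value table Tyrp1 became -0.0492 at 60 days over untreated. In resistant over 4-day tumours Tyrp1 became 0.34, Dct 0.0510 and Slc45a2 0.15, and in resistant over 60-day tumours Tyrp1 became 0.49, Dct 0.0564, Slc45a2 0.72 and Oca2 1.23. That table holds 12 of 16 values for Tyrp1, 8 for Slc45a2 and 3 each for Oca2 and Gpr143. Tumours with 1 title code correlated by 0.09. With the code as a random block, 0.25% of all genes passed at 4 days over untreated, against 1.34% in the main fit, and 0 pigment genes in both. Each code lies within 1 group and all 4-day tumours share a code, so this fit cannot tell the code apart from the group. No paired analysis was possible because nothing in the labels ties a numbered tumour of 1 group to one of another, and the final numbers of the titles repeat within 3 groups. The dim signal of Slc45a2, Oca2, Gpr143 and Rab27a limits their ratios in resistant and untreated tumours, and the cause of the shifts was not tested. Smaller differences also changed sign: in resistant over untreated tumours 2 to 8 of the 10 genes were higher when 1 tumour was left out.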

Other observations

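Among other cells of the biopsies, fibroblast genes were mostly lower at 60 days over untreated tumours, with 3 higher and 5 lower of 8 measured and a median log2 difference of -0.67, and 0 past the threshold. T and NK cell genes had a median of -0.19 at 4 days and 0.06 at 60 days, with 1 of 10 genes lower past the threshold at each time, the granzyme gene Gzma (-1.41 ± 0.28 and -1.48 ± 0.28, SE, limma adjusted p = 0.0305 and 0.0327), named after its values were seen. Skeletal muscle genes had a median of 0.13 at 4 days and -0.46 at 60 days over untreated tumours, and 60-day replicate 3 stood apart, with a muscle mean of 0.28 where the other 60-day tumours had 2.87, 3.81 and 3.34.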
